A study of Homo sapiens with 6 samples.

Results

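The proteasome is the barrel-shaped protease that degrades ubiquitin-tagged proteins, and this report covers the genes of its subunits, regulatory-particle chaperones and activators on arrays of MDA-MB-231, an established human triple-negative breast cancer cell line. Members were taken by symbol, as the genes whose names begin with PSMA, PSMB, PSMC, PSMD or PSME, without the immunoproteasome genes PSMB8, PSMB9 and PSMB10 and without pseudogenes. Of 36 such genes with a named probe, 34 passed the filter (detection p below 0.01 on 2 or more of the 6 arrays), out of 10877 genes tested in all. Each of the 34 was detected on all 6 arrays, and PSMA8 and PSMB11 were detected on none. PSMA7, PSMC5, PSMD7 and PSMD13 were not analysed here. Where a gene had several probes, the probe of highest mean level stood for it. The genes PSMC3IP, PSME3IP1 and PSMD6-AS2 share the letters but encode no subunit, and they were kept apart.

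The study compared 3 groups of 2 arrays each, all from MDA-MB-231 cells. One group stably over-expressed the tRNA locus chr1.trna5, a tRNA-Glu gene with the anticodon TTC, and another stably over-expressed chr16.trna1, a tRNA-Arg gene with the anticodon CCG. The control cells were mock-transfected, and both lines are compared with the same control arrays. The labels do not say whether a line is a clone or a pool, nor whether the 2 arrays of each group stem from separate cultures.

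The core particle is a stack of rings. Alpha subunits (PSMA genes) form the outer rings and the gate, and beta subunits (PSMB genes) form the inner rings, in which PSMB5, PSMB6 and PSMB7 carry the proteolytic sites. The regulatory particle caps the core: its base holds a ring of ATPases (PSMC genes) that unfold substrates and the scaffold proteins PSMD1 and PSMD2, and its lid removes ubiquitin. PSMD5, PSMD9 and PSMD10 are chaperones that help assemble the base and are not part of the finished particle, and the PSME genes encode alternative caps. The transcription factor NFE2L1 raises transcription of proteasome genes when the proteasome is inhibited.

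Promoter sequence was available from RefSeq (GRCh38.p14) for 30 of the 34 genes, all except PSMB1, PSMB6, PSMB7 and PSMD4. The 250 bases before the transcription start are shown for 4 genes on which the results turn: PSMB2 and PSMD8, which rose in both lines, PSMC6, an ATPase that fell in the tRNA-Glu line, and PSMD9, a chaperone that rose there. The windows are chr1:35641527-35641776 on the minus strand for PSMB2, chr19:38374321-38374570 on the plus strand for PSMD8, chr14:52706950-52707199 on the plus strand for PSMC6 and chr12:121888540-121888789 on the plus strand for PSMD9. Capitals mark a match on either strand to any of 3 motifs. These are TGACNNNGC, the antioxidant response element to which NFE2L1 and its relatives bind, CCGGAAGT, bound by ETS factors, and CCAAT, bound by NF-Y.
PSMB2: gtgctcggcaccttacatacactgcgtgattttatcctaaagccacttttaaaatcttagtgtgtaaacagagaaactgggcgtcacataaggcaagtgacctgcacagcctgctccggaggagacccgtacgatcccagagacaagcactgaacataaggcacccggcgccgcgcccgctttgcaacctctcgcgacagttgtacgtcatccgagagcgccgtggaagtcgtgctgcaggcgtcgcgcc
PSMD8: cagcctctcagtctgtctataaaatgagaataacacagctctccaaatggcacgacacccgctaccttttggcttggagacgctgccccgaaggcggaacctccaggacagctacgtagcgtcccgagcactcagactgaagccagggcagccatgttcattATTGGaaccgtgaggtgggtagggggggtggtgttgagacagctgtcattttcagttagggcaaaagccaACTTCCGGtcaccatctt
PSMC6: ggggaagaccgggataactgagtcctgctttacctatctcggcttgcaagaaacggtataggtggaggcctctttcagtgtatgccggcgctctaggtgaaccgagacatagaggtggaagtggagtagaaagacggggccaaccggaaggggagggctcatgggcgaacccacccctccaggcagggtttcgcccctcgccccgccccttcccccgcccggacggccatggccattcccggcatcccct
PSMD9: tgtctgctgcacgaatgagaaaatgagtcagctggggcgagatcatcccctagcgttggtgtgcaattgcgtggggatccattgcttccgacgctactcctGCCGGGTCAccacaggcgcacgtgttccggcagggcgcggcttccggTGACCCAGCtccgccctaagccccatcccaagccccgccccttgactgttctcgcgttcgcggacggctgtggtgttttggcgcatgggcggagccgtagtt
The windows of PSMB2 and PSMC6 held none of the 3 motifs. That of PSMD8 held 1 ETS-type match and 1 CCAAT match, that of PSMD9 held 2 antioxidant response element matches, and no match overlapped another. Over all 35116 promoter windows in the table, 10.9% held TGACNNNGC, 3.42% held CCGGAAGT and 32% held CCAAT. Of the 35 windows of the 30 proteasome genes, 9 held TGACNNNGC (25.7%), 4 held CCGGAAGT (11.4%) and 14 held CCAAT (40%). The genes with TGACNNNGC were PSMA4, PSMB3, PSMD3, PSMD5, PSMD9, PSMD12, PSME1, PSME2 and PSME4. A match describes the letters of the window and does not show binding.

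Levels below are log2 intensities after background correction and quantile normalization, and a difference is given with its standard error (SE). A gene is called at a Benjamini-Hochberg adjusted p under 0.05 over all 10877 genes in limma, and its arrays are said not to overlap when both arrays of a group lie beyond both of the other. Levels of different probes are not compared. Mean non-normalized intensity per array lay between 250.6 and 331.3, and between 16650 and 17704 probes per array were detected. The 5 genes chosen to mark MDA-MB-231 (VIM, CD44, SPARC, AXL, MSN) were all detected, while the luminal markers ESR1, PGR, CDH1 and GATA3 were not and ERBB2 was. Among the markers of blood cells, 4 were detected (CD68, LAPTM5, CSF1R and CD14), and PTPRC and CD3E were not. The summed linear level of the detected 4 was 1745 to 1811 on control arrays, 3795 to 4007 on tRNA-Glu arrays and 2638 to 2733 on tRNA-Arg arrays. CD68, LAPTM5 and CSF1R rose in both lines (1.17, 1.48 and 1.32 with tRNA-Glu, 0.73, 0.61 and 1.01 with tRNA-Arg on the log2 scale), whereas CD14 was not called with tRNA-Glu (0.12) and fell with tRNA-Arg (-0.76). CSF1R lay near the background in control (detection p 0.0039 and 0.013). Another kept CD68 probe gave 0.88 with tRNA-Glu and 0.30 with tRNA-Arg. Of 3 endothelial markers only PECAM1 was detected, and it was not called with tRNA-Glu (-0.12) and fell with tRNA-Arg (-0.67). The part of these shifts in the results was not tested, and in bulk RNA a change in the cells and a change in RNA per cell cannot be told apart.

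In the tRNA-Glu line, genes of the inner core ring and several of the lid and base were higher than in control, while 2 of the base ATPases and 2 of the base chaperones were lower. Of the 34 proteasome genes, 17 rose and 7 fell, together 70.6%, beside 59.5% of all genes called. The share called higher among all genes was 31.7% and the share called lower was 27.8%. For 20 proteasome genes both tRNA-Glu arrays lay above both control arrays, as they did for 42.7% of all genes, and for 10 both lay below, as for 37.6% (80.2% in either direction). The median log2 difference over the 34 genes was 0.21, against 0.04 over all genes, and the median size was 0.37 against 0.34. With arrays scaled to the same median over all probes in place of quantile normalization, none of the 34 genes was called lower, and the count called lower was 4 without control replicate 2, without tRNA-Glu replicate 1 or without tRNA-Glu replicate 2.

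In the tRNA-Arg line, genes of the inner core ring and the lid were again higher than in control, with fewer falls called. Of the 34 genes, 14 rose and 4 fell, together 52.9%, beside 47.2% of all genes called, with 22.8% of all genes higher and 24.4% lower. Both tRNA-Arg arrays lay above both control arrays for 24 proteasome genes, as for 35.8% of all genes, and below them for 4, as for 38.9% (74.6% in either direction). The median log2 difference was 0.19, against -0.02 over all genes, and the median size was 0.22 against 0.26. The count called higher was 8 with median scaling over all probes, 23 with median scaling over the kept probes and 8 without tRNA-Arg replicate 2. The count called lower was 0 to 2 whenever an array was left out.

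**Figure D1:**
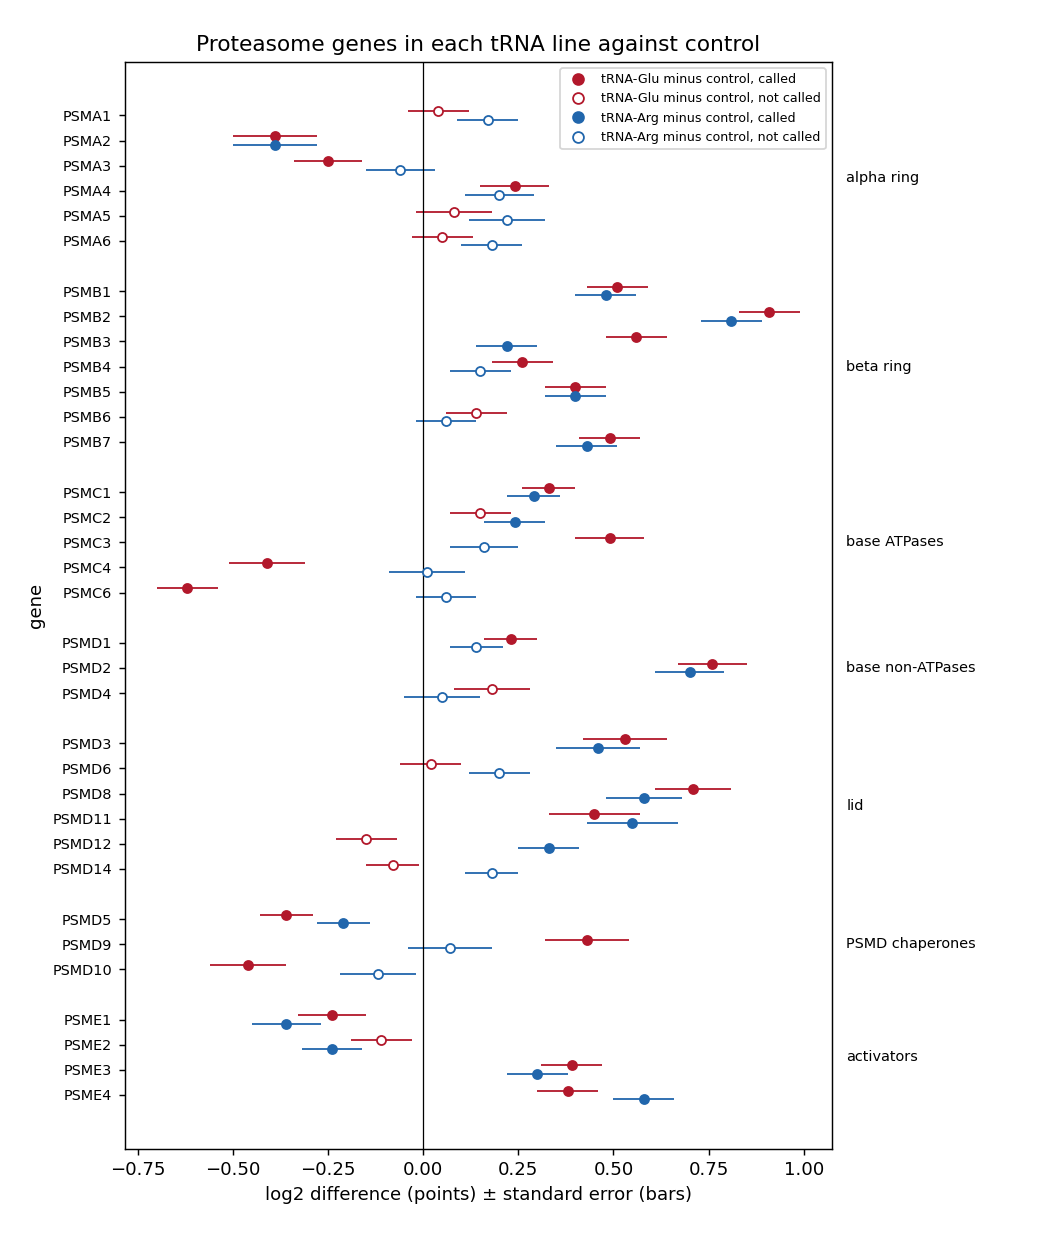
Log2 difference from control (x axis) of each proteasome gene (y axis, grouped by its place in the complex) in the tRNA-Glu line (red) and the tRNA-Arg line (blue), with bars of 1 SE, n = 2 arrays per group, filled where called in limma. All 7 beta ring genes lie to the right of 0 in both lines, while PSMC4 and PSMC6 lie left of 0 in the tRNA-Glu line only.

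Within the beta ring, 6 of 7 measured genes rose in the tRNA-Glu line, with a median difference of 0.49, and 5 of 7 in the tRNA-Arg line, with a median of 0.40. The shares called were 85.7% and 71.4%, beside 59.5% and 47.2% of all genes. None was called lower in either line, and for all 7 the arrays of each line lay above both control arrays, as they did for 42.7% of all genes with tRNA-Glu and 35.8% with tRNA-Arg. PSMB2, a beta subunit without a proteolytic site, read 10.24 and 10.32 in control, 11.13 and 11.25 in the tRNA-Glu line and 11.10 and 11.09 in the tRNA-Arg line. Both control arrays were the lowest. The difference was 0.91 ± 0.08 (SE, with n = 2 arrays in each group, and limma adjusted p = 0.000116), or 1.87-fold, in the tRNA-Glu line, and 0.81 ± 0.08 (limma adjusted p = 0.000324), or 1.76-fold, in the tRNA-Arg line.

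The genes of the proteolytic sites did not all pass the test. PSMB5, the chymotrypsin-like subunit and the main target of bortezomib, read 10.93 and 11.05 in control, 11.41 and 11.37 with tRNA-Glu and 11.37 and 11.42 with tRNA-Arg, a rise of 0.40 ± 0.08 in each line (limma adjusted p = 0.00416 and 0.00556). PSMB7, the trypsin-like subunit, read 11.62 and 11.68 in control, 12.12 and 12.16 with tRNA-Glu and 12.03 and 12.13 with tRNA-Arg, rises of 0.49 ± 0.08 (limma adjusted p = 0.00138) and 0.43 ± 0.08 (limma adjusted p = 0.00375). PSMB6, the caspase-like subunit, read 12.18 and 12.17 in control, 12.37 and 12.27 with tRNA-Glu and 12.25 and 12.23 with tRNA-Arg. Its arrays did not overlap with control, but its differences of 0.14 ± 0.08 (limma adjusted p = 0.157) and 0.06 ± 0.08 (limma adjusted p = 0.527) were not called.

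The other beta genes are structural. PSMB1 read 11.77 and 11.75 in control, 12.23 and 12.33 with tRNA-Glu and 12.24 on both tRNA-Arg arrays, rises of 0.51 ± 0.08 (limma adjusted p = 0.001) and 0.48 ± 0.08 (limma adjusted p = 0.00216). PSMB3 read 11.51 and 11.62 in control, 12.10 and 12.14 with tRNA-Glu and 11.79 on both tRNA-Arg arrays, so the tRNA-Arg arrays lay between the other groups. It rose by 0.56 ± 0.08 in the tRNA-Glu line (limma adjusted p = 0.000756) and was called by a narrow margin in the tRNA-Arg line (0.22 ± 0.08, limma adjusted p = 0.0486), a call that held under 6 of 17 alternatives and was lost whichever array was left out. PSMB4 rose by 0.26 ± 0.08 in the tRNA-Glu line (limma adjusted p = 0.0228), and its difference of 0.15 in the tRNA-Arg line was not called.

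The alpha ring was mixed. Of its 6 measured genes, 1 rose and 2 fell with tRNA-Glu (median difference 0.04), and none rose and 1 fell with tRNA-Arg (median 0.18). The shares called were 50.0% and 16.7%, beside 59.5% and 47.2% of all genes. Both tRNA-Arg arrays lay above both control arrays for 4 alpha genes and below them for 1, as for 35.8% and 38.9% of all genes. With tRNA-Glu this held for 1 and 2 alpha genes, beside 42.7% and 37.6% of all genes. PSMA2 read 8.06 and 8.29 in control, 7.78 and 7.79 with tRNA-Glu and 7.89 and 7.68 with tRNA-Arg. Both control arrays were the highest, and the gene was lower by the same amount in both lines, with a difference of -0.39 ± 0.11 (limma adjusted p = 0.0168 and 0.0218). PSMA3 was called lower in the tRNA-Glu line (-0.25 ± 0.09, limma adjusted p = 0.0458) and PSMA4 higher (0.24 ± 0.09, limma adjusted p = 0.0469), calls that held under 6 and 9 of 17 alternatives. PSMA1, PSMA5 and PSMA6 were not called in either line, with differences of 0.04 to 0.08 in the tRNA-Glu line and 0.17 to 0.22 in the tRNA-Arg line.

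**Figure D2:**
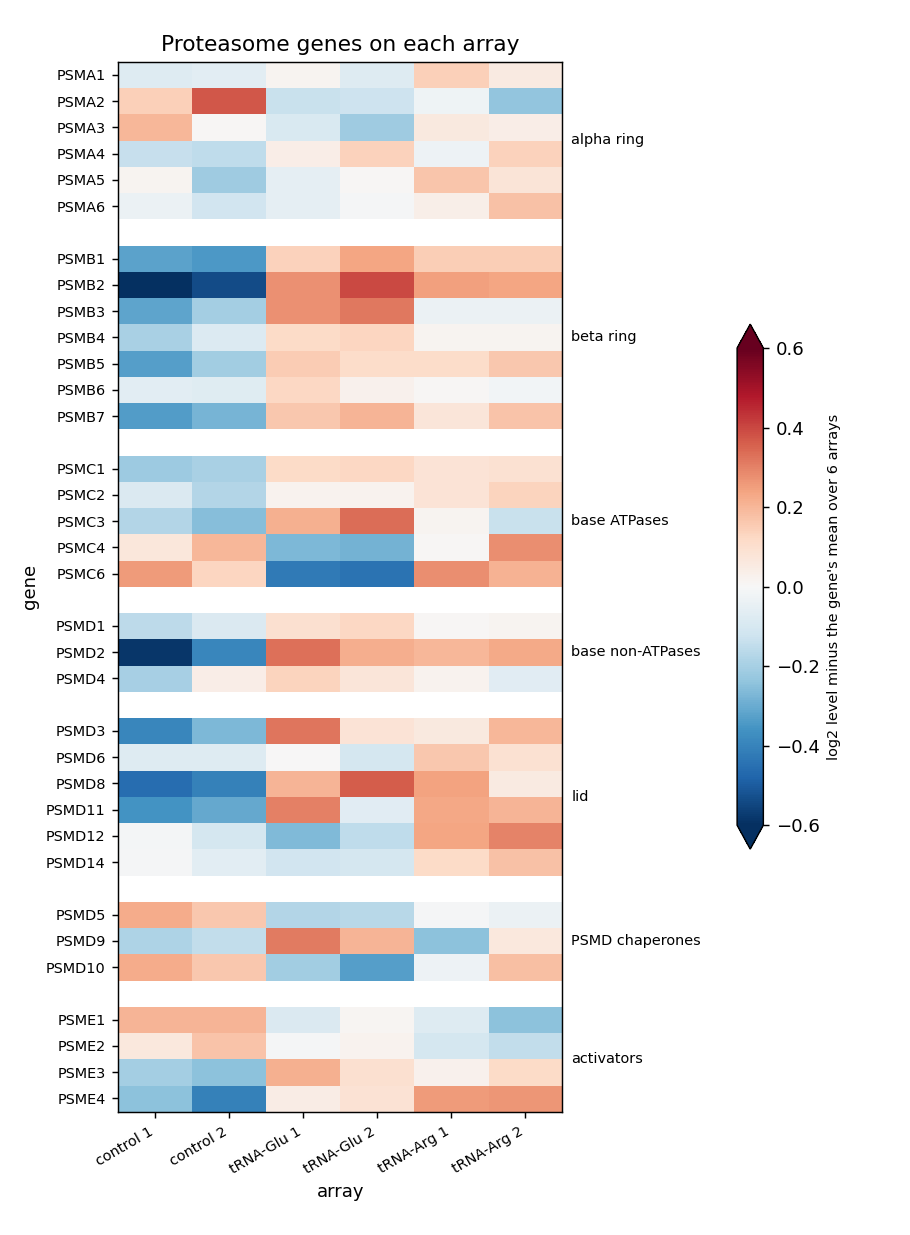
Log2 level of each proteasome gene (y axis) on each array (x axis) minus the gene's mean over the 6 arrays, with red higher and blue lower, limited to ±0.6 in colour. The beta ring rows are blue on both control arrays and mostly red on the arrays of both lines, while in the alpha ring PSMA2 and PSMA3 are lower on both tRNA-Glu arrays than on both control arrays and PSMA4 is higher.

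The ATPase ring of the base split. Of its 5 measured genes 2 rose, 2 fell and 1 was not called in the tRNA-Glu line, and 2 rose and none fell in the tRNA-Arg line. The shares called were 80.0% and 40.0%, beside 59.5% and 47.2% of all genes. PSMC6 read 11.05 and 10.92 in control, 10.37 and 10.35 with tRNA-Glu and 11.07 and 11 with tRNA-Arg. The tRNA-Glu arrays stood alone at the low end, and the tRNA-Arg arrays overlapped with control. The gene fell by 0.62 on the log2 scale in the tRNA-Glu line (SE 0.08, limma adjusted p = 0.000565), or 1.54-fold, and differed by 0.06 ± 0.08 in the tRNA-Arg line (limma adjusted p = 0.593). With median scaling over all probes the tRNA-Glu difference was -0.46 and was not called.

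PSMC4 had the same shape at a fainter probe. It read 7.72 and 7.85 in control, 7.38 and 7.37 with tRNA-Glu and 7.66 and 7.93 with tRNA-Arg, with a difference of -0.41 ± 0.10 in the tRNA-Glu line (limma adjusted p = 0.0111) and 0.01 ± 0.10 in the tRNA-Arg line. PSMC3 went the other way: it read 10.89 and 10.81 in control, 11.28 and 11.40 with tRNA-Glu and 11.08 and 10.93 with tRNA-Arg. It rose by 0.49 ± 0.09 in the tRNA-Glu line (limma adjusted p = 0.00258), and its difference of 0.16 in the tRNA-Arg line was not called. PSMC1 rose in both lines, by 0.33 ± 0.07 (limma adjusted p = 0.00619) and 0.29 ± 0.07 (limma adjusted p = 0.0132). PSMC2 was called higher in the tRNA-Arg line (0.24 ± 0.08, limma adjusted p = 0.0363), under 7 of 17 alternatives, and was not called in the tRNA-Glu line (0.15).

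Of the other base subunits, PSMD2, a scaffold that docks ubiquitin-carrying shuttle proteins, rose in both lines. It read 10.34 and 10.53 in control, 11.25 and 11.14 with tRNA-Glu and 11.12 and 11.15 with tRNA-Arg, so both control arrays were the lowest. The rises were 0.76 ± 0.09, or 1.69-fold (limma adjusted p = 0.000408), and 0.70 ± 0.09, or 1.63-fold (limma adjusted p = 0.000982). PSMD1, the other large scaffold, rose in the tRNA-Glu line (0.23 ± 0.07, limma adjusted p = 0.0303), and its difference of 0.14 in the tRNA-Arg line was not called. PSMD4, a ubiquitin receptor, read 10.18 and 10.42 in control, 10.51 and 10.45 with tRNA-Glu and 10.40 and 10.31 with tRNA-Arg. Its differences of 0.18 ± 0.10 (limma adjusted p = 0.149) and 0.05 ± 0.10 (limma adjusted p = 0.687) were not called.

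In the lid, 3 of 6 measured genes rose in the tRNA-Glu line and 4 of 6 in the tRNA-Arg line, and none was called lower. The shares called were 50.0% and 66.7%, beside 59.5% and 47.2% of all genes. The median difference was 0.24 and 0.39. PSMD8 read 9.12 and 9.17 in control, 9.78 and 9.94 with tRNA-Glu and 9.82 and 9.63 with tRNA-Arg, rises of 0.71 ± 0.10, or 1.64-fold (limma adjusted p = 0.000695), and 0.58 ± 0.10, or 1.49-fold (limma adjusted p = 0.00288). PSMD3 rose by 0.53 ± 0.11 (limma adjusted p = 0.00433) and 0.46 ± 0.11 (limma adjusted p = 0.0115). PSMD11 read 5.81 and 5.86 in control, 6.47 and 6.10 with tRNA-Glu and 6.40 and 6.37 with tRNA-Arg. Its tRNA-Glu arrays lay far apart, but it rose in both lines, by 0.45 ± 0.12 (limma adjusted p = 0.0143) and 0.55 ± 0.12 (limma adjusted p = 0.00844). The PSMD11 signal was faint, with non-normalized intensities of 75 and 85.2 in control, where the array medians were 44.3 and 43.8. Without background correction its tRNA-Glu difference was 0.29, also called.

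PSMD12 and PSMD14 were both called lower with tRNA-Glu than with tRNA-Arg. PSMD12 read 9.84 and 9.75 in control, 9.59 and 9.70 with tRNA-Glu and 10.09 and 10.15 with tRNA-Arg. It rose by 0.33 ± 0.08 in the tRNA-Arg line (limma adjusted p = 0.0149) and was not called in the tRNA-Glu line (-0.15 ± 0.08, limma adjusted p = 0.163). PSMD14, the deubiquitinase of the lid, read 10.69 and 10.63 in control, 10.58 and 10.59 with tRNA-Glu and 10.81 and 10.87 with tRNA-Arg, with differences of -0.08 ± 0.07 (limma adjusted p = 0.412) and 0.18 ± 0.07 (limma adjusted p = 0.0807). The negative tRNA-Glu difference of PSMD14 was positive with median scaling over all probes (0.08) or over the kept probes (0.10). PSMD6 was called neither against control, with differences of 0.02 and 0.20, nor between the lines (-0.18).

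The median difference over the 13 core genes was 0.24 in the tRNA-Glu line and 0.20 in the tRNA-Arg line, and over the 14 regulatory genes it was 0.21 and 0.22. Over all genes the medians were 0.04 and -0.02. With tRNA-Glu 7 core genes rose and 2 fell, and 7 regulatory genes rose and 2 fell. The shares called were 69.2% and 64.3%, beside 59.5% of all genes. With tRNA-Arg 5 core genes rose and 1 fell, and 7 regulatory genes rose and none fell. Here the shares called were 46.2% and 50.0%, beside 47.2% of all genes. After each gene was set to its own mean over the 6 arrays, the median core gene lay at -0.14 and -0.15 on the control arrays, 0.11 on both tRNA-Glu arrays and 0.05 and 0.08 on the tRNA-Arg arrays. The median regulatory gene lay at -0.17 and -0.14, at 0.10 and 0.05, and at 0.10 and 0.15. For both particles, every control array lay below every array of the lines. No test of the core against the regulatory particle was made, since the genes of a complex are not replicates.

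These medians depended on the scaling and on the probes. With median scaling over all probes the core medians were 0.43 and 0.38 and the regulatory medians 0.33 and 0.39. When the probes of a gene were averaged, the core median in the tRNA-Glu line was 0.14 and the regulatory median 0.28.

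Of the 3 base chaperones, 1 rose and 2 fell with tRNA-Glu, and none rose and 1 was called lower with tRNA-Arg. The shares called were 100% and 33.3%, beside 59.5% and 47.2% of all genes. PSMD5, which binds PSMC2, read 7.68 and 7.62 in control, 7.28 and 7.29 with tRNA-Glu and 7.45 and 7.42 with tRNA-Arg, with differences of -0.36 ± 0.07 (limma adjusted p = 0.00432) and -0.21 ± 0.07 (limma adjusted p = 0.0482). The tRNA-Arg call held under 3 of 17 alternatives and was lost whichever array was left out. PSMD10, also called gankyrin, which binds PSMC4, read 10.30 and 10.24 in control, 9.87 and 9.75 with tRNA-Glu and 10.05 and 10.26 with tRNA-Arg. It fell in the tRNA-Glu line (-0.46 ± 0.10, limma adjusted p = 0.00504) and was not called in the tRNA-Arg line (-0.12 ± 0.10), where median scaling over all probes gave 0.03 and over the kept probes gave a value near 0.

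PSMD9, the chaperone that binds PSMC6 and PSMC3, read 6.77 and 6.81 in control, 7.27 and 7.16 with tRNA-Glu and 6.71 and 7.02 with tRNA-Arg. It rose by 0.43 ± 0.11 in the tRNA-Glu line (limma adjusted p = 0.0132), while its tRNA-Arg arrays fell on either side of control. Among the chaperones and the ATPases they bind, PSMD10 and PSMC4 were both lower in the tRNA-Glu line, whereas PSMD9 was higher there with PSMC3 higher and PSMC6 lower. PSMD5 was lower there (-0.36), while PSMC2, the ATPase it binds, was not called (0.15).

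The activators parted by kind. PSME1 and PSME2 encode the interferon-inducible cap that favours antigen peptides. PSME1 read 12.01 on both control arrays, 11.72 and 11.82 with tRNA-Glu and 11.73 and 11.56 with tRNA-Arg, and was lower by -0.36 ± 0.09 in the tRNA-Arg line (limma adjusted p = 0.0125). It was also called lower in the tRNA-Glu line (-0.24 ± 0.09, limma adjusted p = 0.047), under 7 of 17 alternatives, but its difference was 0.02 with median scaling over the kept probes. PSME2 read 11.12 and 11.23 in control, 11.05 and 11.08 with tRNA-Glu and 10.95 and 10.91 with tRNA-Arg. It was called lower in the tRNA-Arg line (-0.24 ± 0.08, limma adjusted p = 0.0392), a call that held under 5 of 17 alternatives and was lost whichever array was left out, and its tRNA-Glu difference of -0.11 was not called and turned to 0.10 or 0.13 with median scaling over all or over the kept probes.

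The nuclear activators were higher. PSME4, a cap linked to histone degradation, read 9.64 and 9.48 in control, 9.93 and 9.97 with tRNA-Glu and 10.14 and 10.15 with tRNA-Arg, rises of 0.38 ± 0.08 (limma adjusted p = 0.00588) and 0.58 ± 0.08, or 1.5-fold (limma adjusted p = 0.00139). PSME3, a nuclear activator of ubiquitin-independent degradation, rose by 0.39 ± 0.08 (limma adjusted p = 0.00533) and 0.30 ± 0.08 (limma adjusted p = 0.0208).

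The lines were also compared with each other, which tests directly where the tRNA-Glu and tRNA-Arg cells differ. Of the 34 proteasome genes 8 were called (23.5%), 3 higher and 5 lower in the tRNA-Glu line, beside 42.6% of all genes called. Calls higher made up 24.4% of all genes and calls lower 18.2%. Both tRNA-Glu arrays lay above both tRNA-Arg arrays for 10 proteasome genes, as for 41.6% of all genes, and below them for 13, as for 32.5% (74.1% in either direction). The median size of the difference was 0.13, against 0.24 over all genes. With median scaling over all probes none was called higher and 1 lower, and with 1 array left out the counts were 0 to 2 higher and 2 to 5 lower, the fewest (0 higher and 2 lower) without tRNA-Glu replicate 2.

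PSMC6 had the largest difference of the 34, with a tRNA-Glu minus tRNA-Arg difference of -0.68 ± 0.08 (limma adjusted p = 0.00157), or 1.60-fold lower in the tRNA-Glu line. PSMD12 was lower by -0.47 ± 0.08 (limma adjusted p = 0.00472), PSMC4 by -0.42 ± 0.10 (limma adjusted p = 0.0162) and PSMD10 by -0.34 ± 0.10 (limma adjusted p = 0.0258). PSMD14 was lower by -0.26 ± 0.07 (limma adjusted p = 0.0282). The genes higher in the tRNA-Glu line were PSMD9 (0.35 ± 0.11, limma adjusted p = 0.0387), PSMB3 (0.33 ± 0.08, limma adjusted p = 0.0132) and PSMC3 (0.33 ± 0.09, limma adjusted p = 0.0218). Of the 8 genes, 7 belong to the regulatory particle or its chaperones, and PSMB3 was the only core gene called by its chosen probe. The shares called were 7.69% of core genes, 35.7% of regulatory genes and 66.7% of the chaperones, beside 42.6% of all genes. Other probes of the core genes PSMA1 (-0.74) and PSMA6 (-0.35) were also called between the lines, with adjustment over all kept probes. So were other probes of the regulatory genes PSMD6 (-0.60) and PSMD4 (0.32), whose chosen probes were not called.

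**Figure D3:**
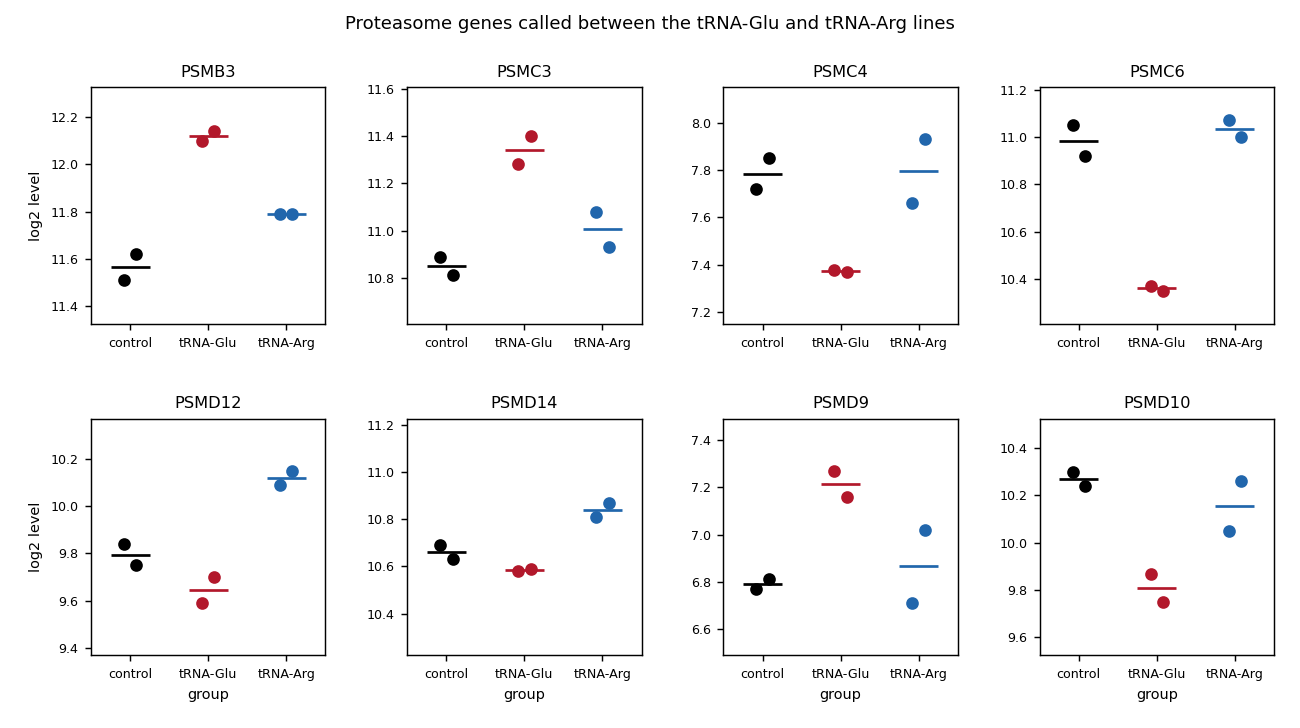
Log2 level (y axis) on each array (points) of the 8 proteasome genes called between the tRNA-Glu and tRNA-Arg lines, by group (x axis), with a line at the group mean. PSMC6 reads 10.35 to 10.37 on the tRNA-Glu arrays and 11 to 11.07 on the tRNA-Arg arrays, while PSMB3 is highest on the tRNA-Glu arrays.

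A set of 12 genes had more than 1 kept probe, and each of these probes was also tested, with adjustment over all kept probes. The probes of PSMC1, PSME3 and PSMD10 moved alike in the tRNA-Glu line: the 3 PSMD10 probes gave -0.46, -0.45 and -0.65, and the other PSMC1 and PSME3 probes each gave 0.33, all called. For PSMA1, PSMA6 and PSMD6 the probes disagreed. The chosen PSMA1 probe gave 0.04 and the other gave -0.62 ± 0.14 (limma adjusted p = 0.00690), the PSMA6 probes gave 0.05 and -0.34 ± 0.09 (limma adjusted p = 0.0118), and the PSMD6 probes gave 0.02 and -0.57 ± 0.08 (limma adjusted p = 0.000970). The 3 other probes were also lower in the tRNA-Glu line than in the tRNA-Arg line, by -0.74, -0.35 and -0.60.

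The other PSMC6 probe gave -0.26 ± 0.18 in the tRNA-Glu line and was not called (limma adjusted p = 0.256). The other PSMC4 probes gave -0.08, not called, and -0.52, called. For PSMD4 the other probes gave 0.30, not called, and 0.50 ± 0.09, called (limma adjusted p = 0.00229), although the chosen probe was not. The other probes of PSMA3 (0.013), PSMA4 (-0.0018) and PSME1 (0.014) were not called in the tRNA-Glu line. In the tRNA-Arg line the other PSMC1 (0.24) and PSME3 (0.19) probes were not called. The other PSMC4 probes there gave 0.40, called, and -0.34, not called. Between the lines the other PSMC6 probe gave -0.50, not called, and the other PSMD4 probes 0.14, not called, and 0.32, called. The other PSMC4 probes gave -0.49, called, and -0.18, not called, and the other PSMD10 probes -0.17, not called, and -0.43, called. Which transcripts each probe reads was not analysed here.

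**Figure D4:**
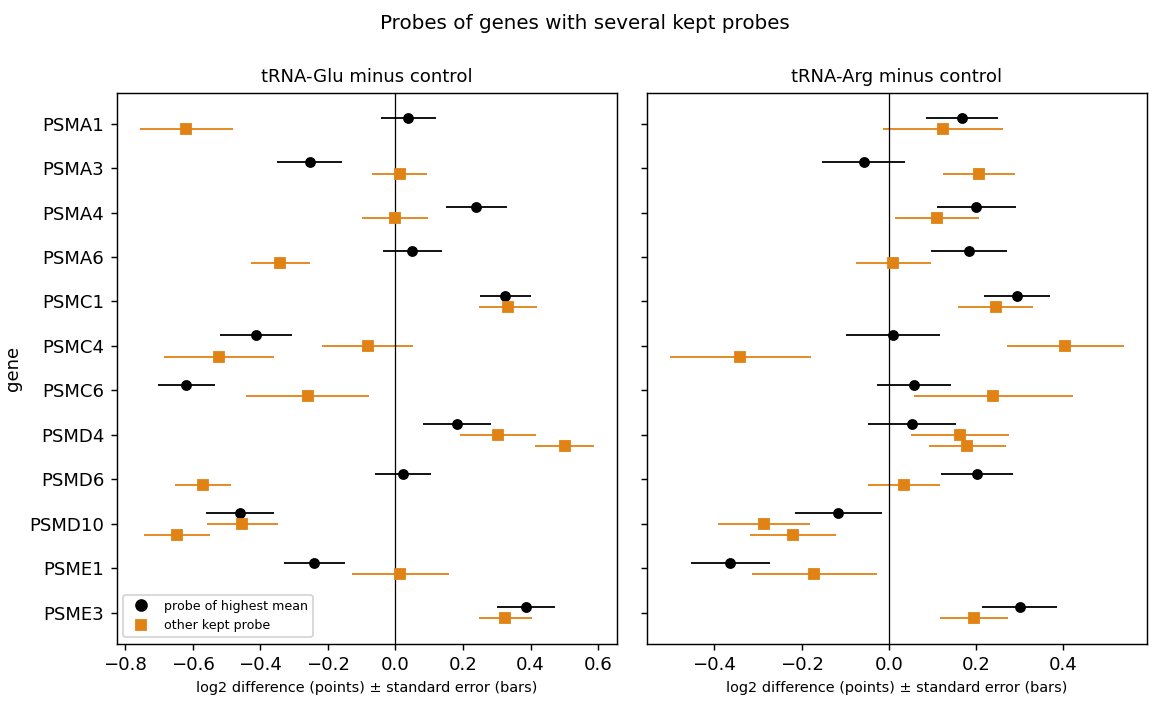
Log2 difference from control (x axis, bars of 1 SE, n = 2 arrays per group) of each kept probe of the 12 genes with several probes (y axis), in the tRNA-Glu line (left) and the tRNA-Arg line (right). Black circles are the probes of highest mean level and orange squares the others. The squares of PSMA1, PSMA6 and PSMD6 lie at -0.62, -0.34 and -0.57 on the left, away from their circles near 0.

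Genes around the proteasome moved in both directions, beside 59.5% of all genes called with tRNA-Glu and 47.2% with tRNA-Arg. All 3 immunoproteasome genes, which encode the interferon-inducible replacements of the proteolytic subunits, rose in the tRNA-Glu line (PSMB8 by 0.80, PSMB9 by 0.26 and PSMB10 by 0.20), and PSMB8 (0.39) and PSMB9 (0.24) rose in the tRNA-Arg line. Another kept PSMB8 probe went the other way, with -0.36 in the tRNA-Glu line and -0.14 in the tRNA-Arg line, and a further one gave 0.72 and 0.45. The inhibitor gene PSMF1 did not pass the detection filter. Of 5 core assembly genes, the tRNA-Glu line had 3 higher and 1 lower by the test, and the tRNA-Arg line 2 higher (80.0% and 40.0% called). POMP, the chaperone that matures the core, rose by 0.50 and 0.46. PSMG3 (0.46) and PSMG4 (0.43) rose and PSMG2 (-0.37) fell with tRNA-Glu, and PSMG1 rose (0.22) with tRNA-Arg, all of them core assembly chaperones.

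Of 12 proteins that associate with the proteasome, 2 rose and 4 fell with tRNA-Glu and 4 rose and 2 fell with tRNA-Arg, 50.0% called in each beside 59.5% and 47.2% of all genes. SEM1, a small lid subunit, rose by 0.57 and 0.56, and ADRM1, a ubiquitin receptor, by 0.52 and 0.46. Neither was counted in the lid or regulatory totals above, which hold only members taken by symbol. USP14 and UCHL5 are deubiquitinases that bind the regulatory particle. USP14 fell in both lines (-0.34 and -0.43), and UCHL5 fell in the tRNA-Glu line (-0.61) and was not called in the tRNA-Arg line (-0.07). Among 6 genes of the NFE2L1 pathway, 2 rose and 2 fell with tRNA-Glu and 1 rose and 2 fell with tRNA-Arg (66.7% and 50.0% called). NFE2L1 itself fell in both lines (-0.43 and -0.90), whereas VCP, the ATPase that extracts it from the membrane, rose (0.79 and 0.54). UBA1, the main ubiquitin-activating enzyme, rose by 0.95 and 0.66 and was the only one of 3 ubiquitin and E1 genes called in either line against control. The chosen UBB probe gave 0.15 and 0.22, whereas another kept UBB probe gave -0.53 and -0.23. Of the 3 genes that share the letters only, PSMC3IP fell in the tRNA-Glu line (-0.29) and PSME3IP1 in the tRNA-Arg line (-0.44), and PSMD6-AS2 was not called.

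The authors' deposited table of fold changes gives the opposite sign for all 24 genes called in the tRNA-Glu line and all 18 called in the tRNA-Arg line. For PSMB2 the authors' deposited table lists -0.89 and -0.79. The opposite sign runs across that table, with Spearman correlations of -0.936 (tRNA-Glu) and -0.938 (tRNA-Arg) to the differences here over 9088 genes. A fit to the authors' processed intensities kept the direction of every proteasome gene called against control. The direction of the table is not stated, and directions here follow the array labels.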

How the data were processed

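Total RNA of 6 arrays was measured on Illumina BeadChips, and samples were grouped by their titles and over-expression labels. The authors deposited, per the file headers, 47323 probes with non-normalized intensity and detection p-value columns for every array, together with processed intensity values and a table of log2 fold changes per gene. The submitters' processing notes name lumi, and its settings are not given in the sources used here. No label says whether same-group arrays stem from separate cultures, so p-values measure only the spread between arrays, which may be technical.

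The intensities were processed by neqc (limma 3.58.1, R 4.3.3; background from the detection p-values, offset 16, quantile normalization, log2). Probes whose detection p was below 0.01 on 2 or more arrays were kept, 18106 in all. In the platform annotation 30113 probes had 1 gene symbol, 8 several and 17202 none. The kept probe of highest mean stood for each of 10877 genes. All 3 groups entered 1 limma fit (lmFit and eBayes, 3 residual and 4.31 prior degrees of freedom), with Benjamini-Hochberg adjustment over all genes and calls at an adjusted p under 0.05. The fit was tested on simulated data. Full statistics are given for the 4 largest rises and falls called in each comparison with arrays that do not overlap, and for PSMB5, PSMB6, PSMB7, PSMD4 and PSMD14, while other members may be named. The members and lists were chosen with earlier results of these data known. Alternatives covered the scaling, background, filter, choice of probe, samples in the fit, the replicate block and each array left out. In a comparison of 2 groups, leaving out either array of the third group repeats the fit of the 2 groups alone. Counts of alternatives therefore hold that fit more than once. The number of arrays limits the precision. A marker of the blood cell list is not reported here.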

Additional observations from a re-analysis of the deposited data

Results flagged for a closer look

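The 8 proteasome genes called between the lines were flagged because their differences from control are unequal in the lines, by the limma test of that difference itself. As tRNA-Glu minus tRNA-Arg on the log2 scale, the values were -0.68 for PSMC6, -0.47 for PSMD12, -0.42 for PSMC4, -0.34 for PSMD10, -0.26 for PSMD14, 0.33 for PSMB3, 0.33 for PSMC3 and 0.35 for PSMD9. Both comparisons with control share the same control arrays. PSMC6 was called under all 17 alternatives, PSMD12 under 16, PSMC3 under 14, PSMB3, PSMC4 and PSMD10 under 13 each, PSMD14 under 11 and PSMD9 under 8. The 17 are not all distinct, since leaving out either control array gives the same fit here as the 2 lines alone. The groups hold 2 arrays each, too few to look for outlying arrays.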

How the results depend on the processing

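Median scaling over all probes gave 3866, 2291 and 1331 genes called in the tRNA-Glu line against control, the tRNA-Arg line against control and between the lines, in place of 6476, 5138 and 4634. Of calls, 56.9%, 58.6% and 42% were then higher, and 59.8%, 53.9% and 62.1% with median scaling over the kept probes, in place of 53.3%, 48.2% and 57.2%. The median over all genes in the tRNA-Glu line moved from 0.04 to 0.08 and 0.11. With median scaling over all probes, proteasome genes called higher numbered 8 in the tRNA-Arg line and 0 between the lines, and those called lower 0, 0 and 1 in the 3 comparisons. With it the core medians were 0.43, 0.38 and 0.10, and the regulatory medians 0.33 and 0.39 against control. Median scaling over the kept probes, chosen after seeing the data, gave core medians of 0.45, 0.36 and 0.15, regulatory medians of 0.35, 0.36 and 0.031, and 23 genes called higher and 1 lower in the tRNA-Arg line. Genes called lower in the tRNA-Arg line numbered 2 with cyclic loess, with no filter on detection, with the 2 groups compared alone and with the replicate block. Deviations of arrays with the same replicate number were nearly uncorrelated between groups (-0.026, 0.021 and -0.046). That cannot show whether the arrays were handled as pairs, which the labels do not state. The block moved no other count by over 1.5 times. Core medians were 0.23 with cyclic loess and 0.18 without a filter in the tRNA-Arg line, and 0.14 without a filter in the tRNA-Glu line. Averaging the probes of a gene gave core medians of 0.14, 0.16 and 0.0007, a regulatory median of 0.28 in the tRNA-Glu line and 8 genes called lower between the lines.

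With 1 array left out, genes called lower numbered 4 to 6 in the tRNA-Glu line, 0 to 2 in the tRNA-Arg line and 2 to 5 between the lines, and genes called higher 8 to 12 in the tRNA-Arg line and 0 to 2 between the lines. Between the lines 2676 to 4570 of all genes were called. Core medians ranged from 0.19 to 0.27 in the tRNA-Glu line, 0.19 to 0.23 in the tRNA-Arg line and -0.0056 to 0.034 between the lines, the lowest without tRNA-Glu replicate 2. Regulatory medians ranged from 0.20 to 0.28 in the tRNA-Glu line and -0.068 to 0.042 between the lines.

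Signs turned as follows for single genes, of which PSME1 in the tRNA-Glu line was the only one called before the turn. With median scaling over all probes the differences were PSMD14 0.077 and PSME2 0.10 in the tRNA-Glu line, and PSMA3 0.11 and PSMD10 0.032 in the tRNA-Arg line, and PSMA2 -0.04 and PSMB5 0.041 between the lines. With averaged probes the differences were PSMA1 -0.29, PSMA6 -0.15 and PSMD6 -0.27 in the tRNA-Glu line (PSMA1 and PSMD6 were then called lower, limma adjusted p = 0.0362 and 0.0154), and PSMA3 0.074 in the tRNA-Arg line, and PSMA4 -0.036 between the lines. With median scaling over kept probes the differences were PSMD14 0.10, PSME1 0.021 and PSME2 0.13 in the tRNA-Glu line, and PSMA3 0.085 and PSMD10 0.0043 in the tRNA-Arg line, and PSMA6 0.050 and PSMB5 0.093 between the lines. With cyclic loess the differences were PSMA2 -0.029 between the lines. With the authors' processed values the differences were PSMA2 -0.0004 between the lines. With 1 array left out they ranged in the tRNA-Glu line from -0.032 to 0.19 for PSMA5, -0.0084 to 0.085 for PSMA1 and -0.031 to 0.074 for PSMD6, and in the tRNA-Arg line from -0.15 to 0.037 for PSMA3, -0.12 to 0.14 for PSMC4, -0.065 to 0.17 for PSMD4, -0.0061 to 0.12 for PSMC6 and -0.081 to 0.23 for PSMD9, and between the lines from -0.05 to 0.20 for PSMD3, -0.11 to 0.11 for PSMA2, -0.043 to 0.12 for PSMA4, -0.016 to 0.084 for PSMB1, -0.038 to 0.020 for PSMB5 and -0.28 to 0.083 for PSMD11.

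Adjusting over every kept probe, also chosen after seeing the data, moved no count of proteasome genes by over 1.5 times. Each gene was still read from its chosen probe there, so this alternative cannot show whether the other probes of a gene move alike. Of called proteasome genes, 12 of 24 in the tRNA-Glu line, 8 of 18 in the tRNA-Arg line and 1 of 8 between the lines were called under all 17 alternatives. With 2 arrays per group, 1 array decides several calls, and differences not called are not shown to be absent. When an array was left out, the lone array of its group was assumed to vary like the other groups. The causes of these shifts were not tested.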
